A study of Homo sapiens with 12 samples.

Results

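The genes described here encode nuclear subunits of the 5 oxidative phosphorylation complexes of the mitochondrial inner membrane. They were chosen by symbol: names starting with NDUFA, NDUFB, NDUFC, NDUFS or NDUFV for complex I (assembly factors, NDUFAF, left out), SDHA to SDHD for complex II, UQCR for complex III, COX4 to COX8 for complex IV, and ATP5F1, ATP5M or ATP5P for complex V. This gave 87 of the 19305 coding sequences counted, 38 in complex I, 4 in complex II, 9 in complex III, 17 in complex IV and 19 in complex V. The rule uses names alone. NDUFC2-KCTD14 and ATP5MF-PTCD1 are read-through genes that share sequence with NDUFC2 and ATP5MF. COXFA4, formerly NDUFA4, falls outside the rule under its current name, as does CYC1, which encodes cytochrome c1 of complex III.

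Complexes I to IV pass electrons from NADH and succinate to oxygen, and complexes I, III and IV pump protons as they do so. Complex V, the ATP synthase, lets protons flow back through its membrane c ring and couples that flow to ATP synthesis in its F1 head. All of the subunits counted here are translated on cytosolic ribosomes and imported, while a few core subunits of complexes I, III, IV and V come from mitochondrial DNA and are not part of this set. Embryonic stem cells are known for a high use of glycolysis, with respiration rising on differentiation.

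The data are ribosome profiling counts, that is, sequenced fragments of mRNA that ribosomes protected from nuclease, counted over each coding sequence. HEK293T, a line derived from human embryonic kidney, gave 8 of the 12 libraries, all from cells exposed to sodium arsenite, an oxidative stressor. They carry control or eIF2A siRNA, in sets 1 and 2, and were labelled as immunoprecipitated (IP) with CBP80 or with eIF4E. CBP80 is part of the nuclear complex that binds the mRNA cap, and eIF4E binds the cap in the cytoplasm. The other 4 were from the human embryonic stem cell line H9, with control or eIF2A shRNA in sets 1 and 2, with no IP and with no arsenite named in their labels. eIF2A is a protein that can bring initiator tRNA to the ribosome. The labels do not say whether the sets were separate cultures, so the spread behind every p-value here may be no more than technical.

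In HEK293T, libraries of the same siRNA and set that differed in IP label agreed within sampling noise over the members. The chi-square per degree of freedom over 80 members lay between 0.816 and 1.12 for such pairs, against 4.55 to 8.67 between sets of the same group. Such a pair cannot be told apart from 1 library sequenced or deposited more than once. Each pair was therefore summed and counted as 1 library, leaving 2 control and 2 eIF2A-labelled libraries of 9500566 to 11375636 coding reads. The H9 libraries held 937990 to 1878700, and there the control and eIF2A-labelled libraries of a set also differed by no more than sampling noise over the members (0.863 and 0.786 per degree of freedom, and 1.04 and 1.07 over all genes). Over all genes the H9 pairs differed by a little more than sampling noise (chi-square test p = 0.00209 in set 1 and 5.88e-07 in set 2). The pairs of IP labels gave chi-square p = 0.0192 to 0.268 over all genes. Over the members, a pair of shRNA labels also cannot be told apart from 1 library. Values are given as CPM, counts per 1000000 coding reads, which do not correct for coding length, so levels are compared between samples and not between genes. The footprints of EIF2A itself did not follow the label throughout: eIF2A-labelled over control was 1.15 (95% counting interval 1.05 to 1.26) in HEK293T set 1 and 0.559 (0.500 to 0.626) in set 2. In H9 it was 1.07 and 1.12 in sets 1 and 2. Libraries are therefore named by their label. Reads outside coding sequences made up 40.0 and 35.2% of uniquely placed reads in the HEK293T control libraries of sets 1 and 2, and 51.1 and 42.3% in the eIF2A-labelled ones. The summed level of 9 pluripotency markers was 5050 to 5384 CPM in H9 and 82.9 to 98.3 CPM in HEK293T. In H9, 4 mesoderm markers summed to at most 1.07 CPM, 4 endoderm markers to at most 7.98 and 4 trophoblast markers to at most 20.2. Other lists were higher in H9: 5 fibroblast markers summed to 662 to 833 CPM, against 15.1 to 18.9 in HEK293T. For 3 ectoderm markers the sums were 449 to 1066 CPM against 60.2 to 65.5. POU5F1, which encodes the pluripotency factor OCT4, was counted at 0 in all of these libraries.

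In HEK293T, the 87 members took a smaller share of the coding footprints in the libraries labelled eIF2A siRNA than in the controls of the same set. The share was 1.64% in the set 1 control and 1.44% with the eIF2A label, and 1.83% in the set 2 control and 1.62% with the label. The share with the label in set 2 lay just below the control share of set 1. The ratio of summed CPM was 0.878 (95% interval 0.872 to 0.884, counting error only) in set 1 and 0.884 (0.878 to 0.890) in set 2. The 2 control libraries differed from each other about as much, at a ratio of 1.12 (1.11 to 1.12) for set 2 over set 1. In H9 the same label gave ratios of 1.02 (0.999 to 1.03) and 1.003 (0.983 to 1.02), which both include 1.

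**Figure D1:**
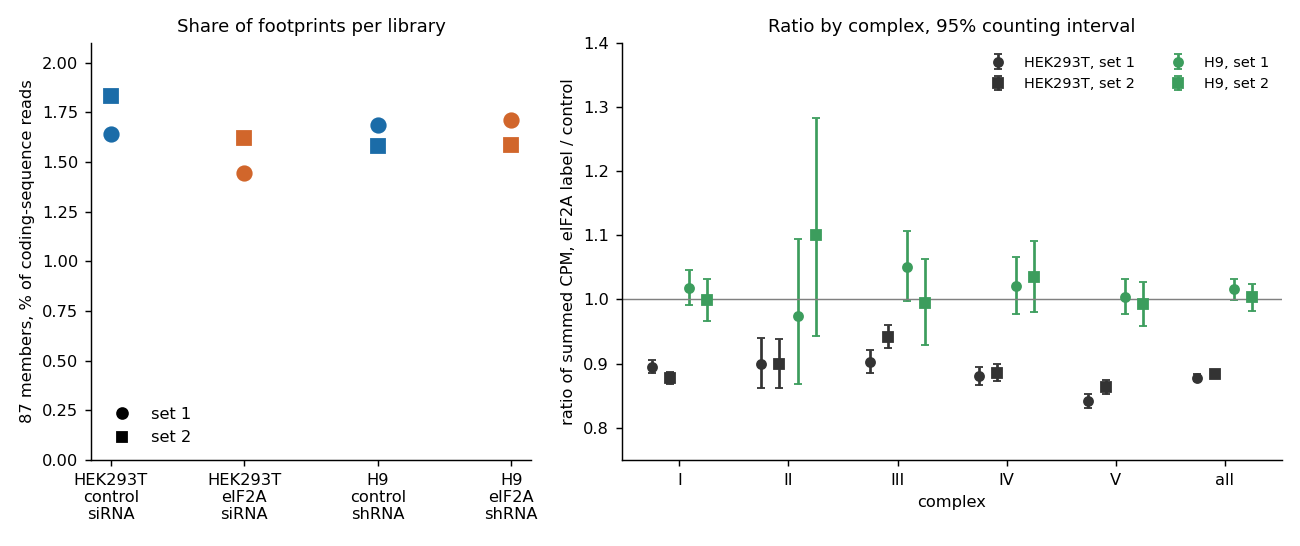
Left, share of coding-sequence reads (%) taken by the 87 members in each HEK293T library (IP labels summed) and each H9 library, circles for set 1 and squares for set 2. Right, ratio of summed CPM, eIF2A label over control, per complex and set, with 95% counting intervals on a linear axis that does not start at 0. All HEK293T ratios lie below 1, between 0.842 and 0.942, while every H9 interval includes 1.

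All 5 complexes had ratios below 1 in both HEK293T sets. Complex V, the ATP synthase, had the lowest, 0.842 in set 1 and 0.864 in set 2. Complex III, which passes electrons from ubiquinol to cytochrome c, had the highest, 0.903 and 0.942. Complex I stood at 0.895 and 0.878, complex II at 0.900 and 0.899, and complex IV at 0.881 and 0.885. Other large groups of housekeeping genes were also below 1 on this scale. The cytosolic ribosomal proteins gave 0.917 and 0.927, and the mitochondrial ribosomal proteins gave 0.952 and 0.918. The differences between these groups were not tested.

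Each gene was then tested over the 4 HEK293T libraries with edgeR's quasi-likelihood test, with trimmed-mean (TMM) scaling and p-values adjusted over all 12331 genes that passed the count filter. 80 of the 87 members passed it, and NDUFC2-KCTD14, COX6A2, COX6B2, COX7A1, COX7B2, COX8C and ATP5MGL did not. The fit drew the spread mainly from all genes together (median prior degrees of freedom 97.0, residual 2). Standard errors and p-values of this fit thus do not measure each member's own spread between libraries. Of the 80, 23 were lower with the eIF2A label and 1 was higher at an adjusted p under 0.05, that is, 28.8% and 1.25% of them. Among all genes tested, 6.29% were called lower and 6.15% higher. The median fitted change of the 80 members was −0.27 on the log2 scale, against 0.00 for all genes, and 70 of the 80 were negative. With library sizes alone in place of TMM, all genes shift by 0.09 on the log2 scale, the members' median becomes −0.18, and 11 members are called lower and 1 higher, against 2.37% and 6% of all genes. These calls rested on single libraries: without the control library of set 2, 0 members were called in either direction by edgeR, with 15 of 80 at an unadjusted p under 0.05. Without the eIF2A-labelled library of set 1, 1 was called lower and 1 higher, without the eIF2A-labelled library of set 2, 42 lower and 0 higher, and without the control of set 1, 16 lower and 0 higher. These compare with 0.345, 1.33, 8.25 and 3.63% of all genes called lower, in that order. DESeq2 called 19 lower and 0 higher, against 3.69 and 2.27% of all genes. The share of reads outside coding sequences moved with the label, as given above, and its part in these changes was not tested.

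54 of the 80 members had a lower CPM with the eIF2A label in both sets (67.5%), and 13 were higher in both. Of all tested genes, 26.1% were lower in both sets on the same scale and 46.3% higher in both. Across the 80 members the log2 ratio of set 1 correlated with that of set 2 at r = 0.634. The ratios share genes and their depth but no library. The correlation over all genes was not computed, so this value is not shown to be particular to the members. Among members whose groups of CPM did not overlap, 36 had a negative fitted change and 8 a positive one. SDHB is among the 36 by its fitted value of −0.02, although both its labelled libraries lay above both controls in CPM. Over all genes, split by mean CPM instead, non-overlapping groups were lower for 20.6% and higher for 35.9%.

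**Figure D2:**
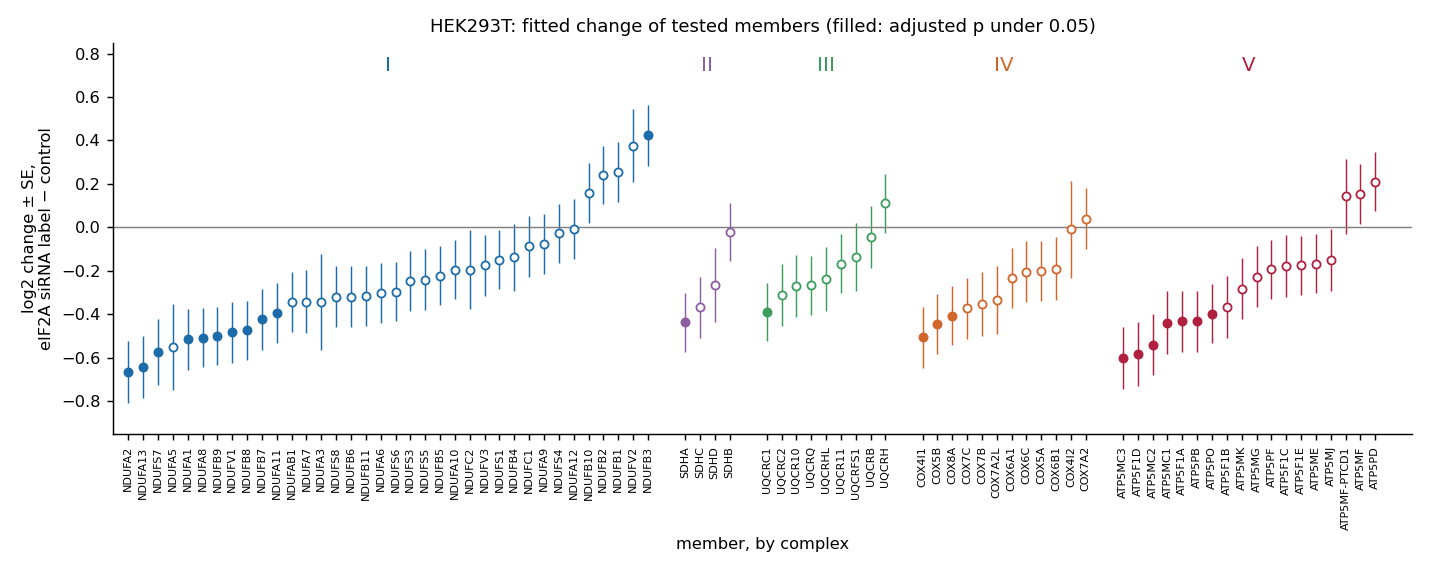
Fitted log2 change, eIF2A siRNA label minus control, of the tested members in HEK293T, with 1 not reported here left out, ordered within complexes I to V, with bars of 1 standard error on each side. Filled points passed an adjusted p of 0.05 in edgeR, and all of them but NDUFB3 lie below 0.

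In complex I, 11 of 37 tested subunits were called lower and 1 higher, with a median change of −0.30. The catalytic core, which binds NADH, FMN and the iron-sulfur clusters, had NDUFS7 and NDUFV1 among the subunits called lower. NDUFV1, which holds the FMN and NADH site, stood at 346 and 381 CPM in the controls of sets 1 and 2 and at 262 and 290 CPM with the eIF2A label. The groups did not overlap, and the fitted change was −0.48 ± 0.14 (SE; edgeR adjusted p = 0.0123). NDUFS7, which carries the last iron-sulfur cluster before ubiquinone, stood at 34.2 and 46.0 CPM in the controls and at 28.5 CPM in both labelled libraries. It fell by 0.57 on the log2 scale (edgeR adjusted p = 0.00708), and most of its drop was in set 2, where the ratio was 0.621, against 0.834 in set 1. Other core subunits did not pass the test: NDUFS8 had a change of −0.32, NDUFS3 −0.25 and NDUFS1 −0.15. NDUFV2, the partner of NDUFV1 in the NADH module, went the other way, with 15.4 and 16.6 CPM in the controls and 23.9 and 20.3 CPM with the label. Its fitted change of 0.38 ± 0.17 (SE) did not pass the adjustment (edgeR adjusted p = 0.134).

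The accessory subunits of complex I surround that core and are needed for its assembly or stability. Of 30 tested, 8 were called lower and 1 higher. NDUFA2 had the lowest fitted value of any member. Its levels were 83.8 and 110 CPM in the controls and 57.6 and 71.6 CPM with the eIF2A label, with no overlap and a fitted change of −0.67 ± 0.14 (SE; edgeR adjusted p = 0.000873). NDUFA13, also known as GRIM-19, had 494 and 638 CPM in the controls and 367 and 402 CPM with the label, or 566 ± 102 against 385 ± 25.1 CPM (SD, n = 2 each). Its change was −0.64 (edgeR adjusted p = 0.00124). NDUFA1, a small membrane subunit needed for assembly, stood at 266 and 297 CPM in the controls and 186 and 231 CPM with the label, and NDUFA8, a twin-cysteine subunit facing the intermembrane space, at 125 and 129 against 88.4 and 101 CPM. Both fell by about the same amount, −0.52 and −0.51. NDUFB9, NDUFB8, NDUFB7 and NDUFA11 were the other accessory subunits called lower, at −0.50, −0.47, −0.42 and −0.40. For NDUFB7 the ratio was 0.942 in set 1 and 0.681 in set 2. Its labelled libraries of sets 1 and 2 were close, at 69.0 and 67.7 CPM, while its controls stood at 73.2 and 99.5 CPM. NDUFA5 had a value of −0.55 but lay just outside the threshold (edgeR adjusted p = 0.0505) at only 7.85 to 13.2 CPM.

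NDUFB3, a membrane-arm accessory subunit, was the single member called higher. Its controls were close together at 207 and 209 CPM, and the eIF2A-labelled libraries stood above both at 263 and 326 CPM. The fitted change was 0.42 ± 0.14 (SE; edgeR adjusted p = 0.0311), and it was not called by DESeq2. 3 further NDUFB subunits had non-overlapping groups in the same direction without passing the test. NDUFB1 had 60.0 and 54.6 CPM in the controls against 76.6 and 68.9 CPM, NDUFB2 106 and 109 against 134 and 136 CPM, and NDUFB10 364 and 396 against 442 and 460 CPM. The membrane arm thus held subunits on both sides: NDUFB9, NDUFB8 and NDUFB7 were called lower while these 4 had positive values of 0.16 to 0.42. NDUFB3 has 5 pseudogenes named after it in RefSeq, so its uniquely placed reads may leave out part of its footprints.

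Complex II, succinate dehydrogenase, links the citric acid cycle to the chain and has 4 subunits, all nuclear. SDHA, the flavoprotein that oxidizes succinate, was the one called lower. Its 2 controls both stood at 136 CPM and the eIF2A-labelled libraries at 105 and 108 CPM, a change of −0.44 ± 0.13 (SE; edgeR adjusted p = 0.0208). SDHC and SDHD, the membrane anchors, had values of −0.37 and −0.27 that did not pass. SDHB, the iron-sulfur subunit, was at 173 and 166 CPM in the controls and 173 and 181 CPM with the label, a fitted value of −0.02. So within this complex SDHA alone was called, SDHC and SDHD had smaller negative values, and SDHB showed no shift beyond 1 standard error. The differences between these subunits were not tested.

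In complex III, 1 of 9 tested subunits was called lower. This was UQCRC1, one of the large core proteins on the matrix side, with 223 and 231 CPM in the controls and 187 and 181 CPM with the label (−0.39 ± 0.14, SE; edgeR adjusted p = 0.0421). UQCRC2, the other core protein, had 665 and 670 CPM against 532 and 607 CPM, which did not pass (−0.31). UQCRFS1, the Rieske iron-sulfur protein, overlapped between groups at 28.5 and 30.3 against 24.9 and 31.6 CPM. UQCRH, the acidic hinge protein, had a positive value of 0.11, while its retrocopy UQCRHL had −0.24, and neither passed. Reads shared by these near-identical genes may not be placed uniquely, so the split between them is uncertain.

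Complex IV, cytochrome c oxidase, had 3 of 12 tested subunits called lower. COX4I1, the largest nuclear subunit and the site of regulation by ATP, stood at 339 and 378 CPM in the controls and 246 and 288 CPM with the eIF2A label. It changed by −0.51 ± 0.14 (SE; edgeR adjusted p = 0.00908). COX5B, on the matrix side, had 175 and 233 against 153 and 165 CPM (−0.45), and COX8A, a small membrane subunit, had 80.7 and 96.7 against 74.3 and 68.0 CPM (−0.41). For both, set 2 showed the wider gap, with ratios of 0.707 and 0.703 against 0.877 and 0.921 in set 1. Several subunits of this complex exist as tissue isoforms. The heart and muscle forms COX6A2 and COX7A1 and the testis forms COX6B2, COX7B2 and COX8C were at or near 0 in all libraries, at 0 to 3.20 CPM, where 3 counts correspond to 0.264 to 3.20 CPM. COX4I2, the lung form used under low oxygen, was counted at 5.71 to 8.42 CPM in HEK293T and had a fitted value of −0.01. COX7A2, the common form of its subunit, had overlapping groups, with 410 and 462 CPM in the controls and 460 and 491 CPM with the label (0.04).

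Complex V had the most calls relative to its size, with 7 of 18 tested subunits lower and none higher, though its median change of −0.25 was like that of the others. The c ring, the proton-driven rotor, is built from 1 mature protein that 3 genes encode with different import sequences. All 3 genes were called lower. ATP5MC3 had 325 and 437 CPM in the controls and 241 and 290 CPM with the eIF2A label, a change of −0.60 ± 0.14 (SE; edgeR adjusted p = 0.0027). ATP5MC2 had 206 and 236 against 142 and 180 CPM (−0.54), and ATP5MC1 119 and 159 against 93.7 and 123 CPM (−0.44). The groups of ATP5MC1 overlapped, which was so for no other called member. The 3 genes kept similar shares of their joint footprints: ATP5MC3 held 49.97 and 52.5% in the controls and 50.5 and 49.0% with the label.

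In the F1 head, 2 of 5 subunits were called lower. ATP5F1A, the alpha subunit, had 665 and 600 CPM in the controls and 487 and 506 CPM with the label (−0.43 ± 0.14, SE; edgeR adjusted p = 0.029). ATP5F1B, the catalytic beta subunit, had 744 and 777 against 641 and 614 CPM, which did not pass (−0.37; edgeR adjusted p = 0.0733). ATP5F1D, the delta subunit of the central stalk, had 46.6 and 54.0 against 34.5 and 36.6 CPM (−0.58). The other central-stalk subunits, ATP5F1C and ATP5F1E, had values of −0.18 and −0.17 and overlapping groups. The peripheral stalk, which holds the head still against the rotor, had ATP5PB (574 and 544 against 429 and 450 CPM, −0.43) and ATP5PO (194 and 222 against 170 and 166 CPM, −0.40) called lower. Its other subunits did not pass, and ATP5PD was higher in both labelled libraries, with 179 and 171 CPM in the controls and 205 and 224 CPM with the label (0.21). None of the 5 tested small membrane subunits, among them ATP5ME, ATP5MF and ATP5MG, was called.

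**Figure D3:**
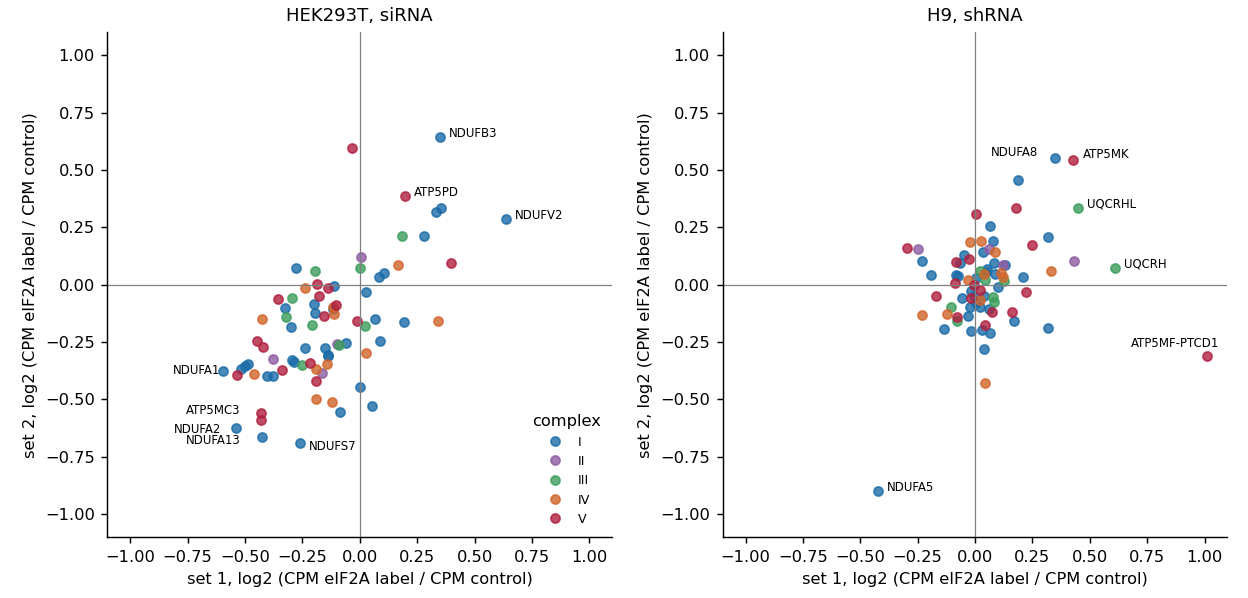
Log2 ratio of CPM, eIF2A label over control, of each of the 80 members in set 1 (x axis) and set 2 (y axis), in HEK293T (left) and H9 (right), coloured by complex. In HEK293T 54 members lie below 0 on both axes and 13 above 0 on both, against 26.1 and 46.3% of all tested genes. In H9 16 and 31 do, against 25.4 and 25.1% of 10881 of those genes with reads in every H9 library. The far H9 points NDUFA5, UQCRH and ATP5MF-PTCD1 have few reads.

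Other genes of the pathway were looked at through a list of assembly factors, cytochrome c and c1, and regulators. Of these, 75 were counted and tested. 10 were lower and 2 higher in HEK293T with the eIF2A label, against 6.29% and 6.15% of all genes, with a median of −0.15. The largest changes were in SDHAF4, a complex II assembly factor (−0.89, at 8.20 CPM in the controls), FMC1, a factor for the ATP synthase head (−0.89, at 15.8 CPM), and COX17, the copper chaperone of complex IV (0.71, at 11.3 CPM). CYCS, cytochrome c itself, was called lower at −0.41, from 128 to 102 CPM.

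In H9, no member passed the test between the shRNA labels. edgeR called 0 of 79 tested members and 0 of 9751 genes (0%), with 2 members and 84 genes at an unadjusted p under 0.05, and DESeq2 called 0 of either and had 0 at an unadjusted p under 0.05. The members' median change was 0.02, with a range of −0.40 to 0.48 and standard errors of 0.10 to 0.53. The 2 members below the unadjusted threshold were ATP5MK (36.8 and 35.1 CPM in the controls, 49.5 and 51.2 CPM with the eIF2A label) and NDUFA8 (67.2 and 52.3 against 85.7 and 76.8 CPM). NDUFA2, the largest fall in HEK293T, stood at 71.0 and 65.5 CPM in the H9 controls and 79.8 and 58.6 CPM with the label. The 5 members with non-overlapping lower groups and the 13 with non-overlapping higher ones compare with 11.7% and 12% of all genes.

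The difference of the label effects between HEK293T and H9 was tested as an interaction over the 8 summed and H9 libraries. This test was added once results were known. Cell line, siRNA or shRNA, arsenite, IP and depth all change together in it and cannot be told apart. edgeR called 0 of 80 members and 0 of 12911 genes (0%), with 18 members and 1062 genes (8.23%) at an unadjusted p under 0.05. The median difference was 0.29 for the members, with 69 of 80 more positive in H9, and −0.01 for all genes. NDUFA8 had the largest, with an effect of −0.51 in HEK293T and 0.44 in H9, a difference of 0.95 ± 0.24 (SE; edgeR adjusted p = 0.21). The HEK293T decrease is therefore not shown to differ from the H9 value for any single member.

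No member passed the test between CBP80-labelled and eIF4E-labelled libraries of HEK293T. As these pairs cannot be told apart from 1 library, the test says little about the 2 cap-binding proteins. With all 8 libraries in 1 edgeR fit, 0 of 80 members and 0 of 11778 genes were called (0%), with 0 members and 99 genes at an unadjusted p under 0.05. Member changes ranged from −0.10 to 0.13 on the log2 scale. With the matched pair of the same siRNA and set as a block, 6 genes were called, none of them a member, and 4 members (5%) and 4.79% of all genes were at an unadjusted p under 0.05. SDHA had the smallest p of the members, with a CBP80 over eIF4E change of 0.12 ± 0.04 (SE; edgeR adjusted p = 0.998).

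The H9 controls were then compared with the HEK293T controls. Cell line, siRNA or shRNA, arsenite, IP and depth all change together here and cannot be told apart. These are the same HEK293T control libraries as in the siRNA comparison. The median prior degrees of freedom of this fit were without limit, so its p-values rest on a spread pooled over genes. 40 of 80 members were lower in H9 and 19 higher by edgeR (50% and 23.8%), against 37.3% and 34.5% of all genes tested, with a median of −0.41 for members and −0.07 for all genes. Complex V held 11 lower and 4 higher of 18, complex IV 6 and 4 of 12, complex III 6 and 2 of 9, complex II 3 and 0 of 4, and complex I 14 and 9 of 37. The sums did not follow the medians. Complex V summed to 1.29 times the HEK293T level in set 1 and 1.101 times in set 2, although its median member was at −0.85, since ATP5F1B (744 and 777 CPM in HEK293T, 2168 and 2037 CPM in H9) and ATP5F1A (665 and 600 against 1276 and 1056 CPM) carry much of its reads.

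**Figure D4:**
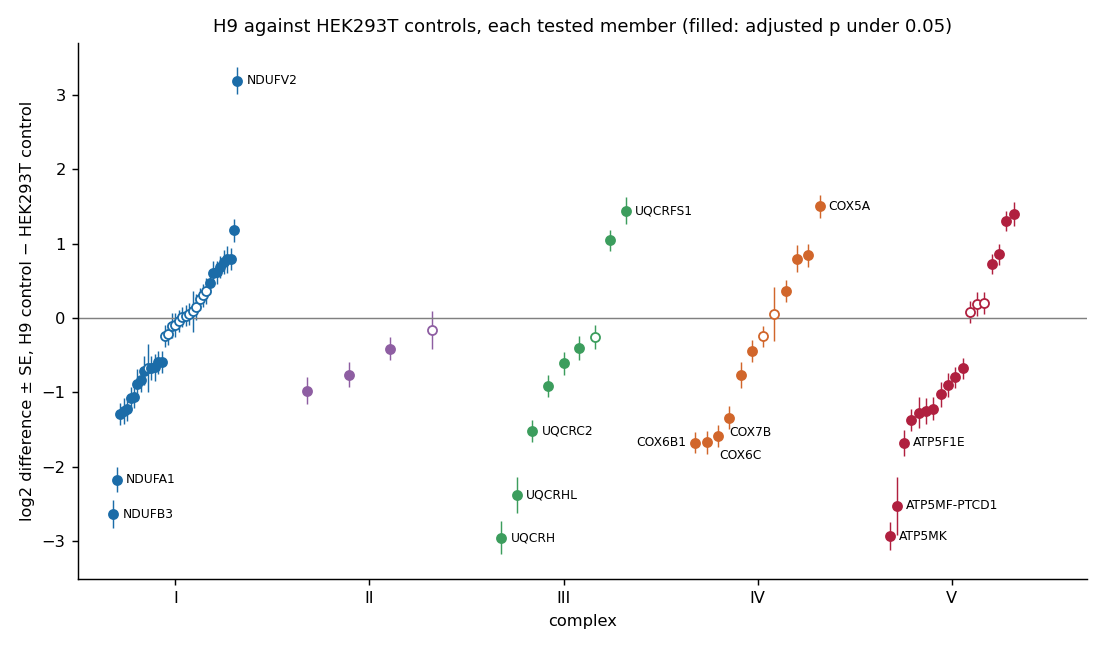
Fitted log2 difference, H9 control minus HEK293T control, of each of the 80 tested members, ordered within complexes I to V, with bars of 1 standard error on each side and filled points for an edgeR adjusted p under 0.05. NDUFV2 stands alone at 3.19 at the top, and UQCRH, ATP5MK and NDUFB3 are lowest, between −2.95 and −2.64.

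NDUFV2 had the largest difference of any member. It stood at 15.4 and 16.6 CPM in the HEK293T controls and at 160 and 165 CPM in the H9 controls, or 3.19 ± 0.18 (SE; edgeR adjusted p = 1.56e-67). Its partner NDUFV1 was lower in H9, at 208 and 179 against 346 and 381 CPM (−1.07). The largest decreases were UQCRH (110 and 105 CPM in HEK293T, 13.9 and 17.2 CPM in H9; −2.95) and ATP5MK, a small membrane subunit of the ATP synthase (243 and 249.1 against 36.8 and 35.1 CPM; −2.93). NDUFB3 followed with 207 and 209 against 38.7 and 35.7 CPM (−2.64). ATP5MF-PTCD1, UQCRHL, NDUFA1, ATP5F1E, COX6B1 and COX6C completed the 10 largest, all lower in H9, at −2.52 to −1.67. Among the increases after NDUFV2 were COX5A, at 75.6 and 86.7 against 267 and 245 CPM (1.498), UQCRFS1, at 28.5 and 30.3 against 101 and 77.4 CPM (1.44), and ATP5F1D, at 46.6 and 54.0 against 153 and 142 CPM (1.398). In the c ring, ATP5MC2 held 31.8 and 28.4% of the 3 genes' joint footprints in the HEK293T controls and 49.7 and 41.2% in the H9 controls, while ATP5MC1 held 18.3 and 19.1% against 9.72 and 14.5%.

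50 of the 87 members have at least 1 RefSeq pseudogene named after them, 202 in all, and reads of such copies may not be placed uniquely. The median difference between the cell lines was −0.61 for the 49 tested members with such a copy, −0.90 for the 17 with 5 or more, and 0.01 for the 31 without one. In the HEK293T siRNA comparison the corresponding medians were −0.24, −0.27 and −0.32. Rows outside coding sequences, ambiguous or multiply placed made up 87.5 to 89.5% of all counts in HEK293T and 96.2 to 96.5% in H9. The part of these in the cell line difference was not tested. Of the other pathway genes, 41 of 75 were lower in H9 and 12 higher, against the 37.3% and 34.5% of all genes given above. BCS1L, which inserts the Rieske protein into complex III, differed most (−3.34), followed by UQCC6 (−3.21) and LYRM7 (−2.91), which serve the same complex.

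Within H9, the chi-square per degree of freedom over the members was 2.05 and 2.35 between the sets of a label, above the values between labels of a set given earlier. Over all genes it was 2.75 and 3.13, in the same order of labels (eIF2A, then control). With both shRNA labels of a set summed, the ratio of set 2 over set 1 was taken for the 79 members tested in H9. Its 95% counting interval lay below 1 for 24 (30.4%) and above 1 for 5 (6.33%), with a median ratio of 0.949. Of all genes tested in H9, 14.6% had an interval below 1 and 12% above it, with a median of 0.982. The members below 1 included NDUFB1 (0.559, interval 0.415 to 0.747), UQCRC1 (0.740, 0.688 to 0.796) and ATP5F1A (0.829, 0.789 to 0.870). ATP5MC1 went the other way, at 1.46 (1.21 to 1.78), with 59.6 and 62.8 CPM in the libraries of set 1 and 92.6 and 85.3 CPM in those of set 2. Markers of other cell types differed between the sets as well. NES, which encodes the intermediate filament nestin, stood at 481 and 445 CPM in the control and eIF2A-labelled libraries of set 1 and at 1065 and 1066 CPM in those of set 2. PAX6, a transcription factor of neural ectoderm, was at 0 in all 4 H9 libraries, and SOX1, another, at 3.17 and 3.73 against 1.32 and 0 CPM. Of the fibroblast markers, COL1A2, a chain of type I collagen, stood at 143 and 149 CPM in set 1 and 249.5 and 256 CPM in set 2, while THY1 was at 393 and 398 against 370 and 394 CPM. Their part in the members' differences between sets was not tested. With 1 summed library a set, this is a description of those libraries.

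Promoter sequences were read because many genes of this kind are known targets of shared activators, among them NRF1, GABP of the ETS family, and YY1. Any part of these activators in the footprint changes was not tested. RefSeq promoter windows of 300 bases (250 upstream of the annotated start and 50 from it, GRCh38.p14) matched 65 of the 80 members tested in HEK293T. Windows were searched on both strands. The NRF1 motif, GCGC followed by any base and TGCGC, was found in 24.6% of the member windows, in 12% of 10082 windows of genes tested in HEK293T and in 8.58% of all 15843 windows. Its form with A at the free base, which is contained in the former, was found in 6.15, 2.39 and 1.75%. The ETS core CCGGAAG was found in 30.8, 19.4 and 14.2%, and the YY1 motif, AA followed by any base, ATGG and CGGC, in 13.8, 3.38 and 2.25%. Members called lower and the rest had the NRF1 motif at 26.3 and 23.9% and the ETS core at 31.6 and 30.4%, so these 2 motifs were about as common on both sides. The YY1 motif was in 1 of 19 windows of members called lower and 8 of 46 of the others. The GC box GGGCGG was in 78.9% of the 19 windows of members called lower and 54.3% of the other 46, beside 71% of tested genes. CCAAT was in 15.8 and 39.1%, beside 37.4%. These differences were not tested. By complex, 0 of 10 complex IV windows held the NRF1 motif and 5 of 10 the ETS core, while complex III had them in 4 and 3 of 7. The windows of TATAAA-bearing promoters were few, with 9.23% of members against 5.63% of tested genes. A C at the start followed by 4 pyrimidines is the terminal oligopyrimidine pattern of ribosomal protein genes. It was found at 13.8% of member starts and 5.35% of those of tested genes. By complex it stood at 1 of 32 starts in I, 0 of 3 in II, 1 of 7 in III, 3 of 10 in IV and 4 of 13 in V. Members called lower and the rest had it at 15.8 and 13%. A match is a run of letters and not a site shown to be bound.

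The 120 bases upstream of the annotated start are given for 1 member called lower in each complex and for NDUFB3, the one called higher, so that the motifs can be seen in place. They are RefSeq GRCh38.p14 sequence, written 5′ to 3′ on the gene's strand, with matches to the NRF1 motif or the ETS core on either strand in capitals. They lie at chr19:19516105-19516224 (plus strand) for NDUFA13, chr5:218200-218319 (plus) for SDHA, chr3:48609647-48609766 (minus) for UQCRC1, chr11:63974500-63974619 (plus) for COX8A, chr21:33915805-33915924 (minus) for ATP5PO and chr2:201071881-201072000 (plus) for NDUFB3.
NDUFA13: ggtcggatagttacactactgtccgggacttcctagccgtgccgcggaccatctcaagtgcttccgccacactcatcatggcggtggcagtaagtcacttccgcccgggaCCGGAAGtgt
SDHA: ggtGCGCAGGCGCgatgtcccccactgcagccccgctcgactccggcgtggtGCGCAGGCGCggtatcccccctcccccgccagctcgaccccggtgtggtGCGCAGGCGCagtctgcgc
UQCRC1: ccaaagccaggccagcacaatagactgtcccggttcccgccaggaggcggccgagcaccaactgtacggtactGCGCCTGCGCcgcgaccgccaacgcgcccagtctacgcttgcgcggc
COX8A: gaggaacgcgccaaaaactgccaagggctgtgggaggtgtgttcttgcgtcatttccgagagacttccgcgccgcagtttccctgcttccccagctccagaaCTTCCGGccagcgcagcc
ATP5PO: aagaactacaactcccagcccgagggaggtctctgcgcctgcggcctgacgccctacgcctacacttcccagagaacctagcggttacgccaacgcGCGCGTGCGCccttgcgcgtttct
NDUFB3: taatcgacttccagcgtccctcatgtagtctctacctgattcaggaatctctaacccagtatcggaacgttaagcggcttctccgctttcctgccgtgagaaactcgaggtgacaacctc
SDHA holds 4 matches to the NRF1 motif in its window, of which the 3 in this stretch stand in a near repeat. UQCRC1 and ATP5PO hold 1 each, at 47 and 24 bases before the start, and NDUFA13 and COX8A hold an ETS core at 10 and 18 bases before it. The NDUFB3 window held no match to the NRF1, ETS or YY1 motif. The lower members shown all hold a match, so they do not stand for every member called lower. The windows of NDUFA2, NDUFB8, NDUFS7, NDUFV1, ATP5F1A, ATP5MC1, ATP5MC2 and ATP5PB, also called lower, held neither the NRF1 motif nor the ETS core. As given above, these motifs were about as common among the members not called lower.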

How the data were processed

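The authors deposited raw counts of reads per coding sequence, with 1 RefSeq accession a row and 12 libraries. The tools named are cutadapt and STAR 2.5.2b, on hg19, per the submitters' processing notes. RNA was extracted with TRIzol and made into small RNA libraries, per the labels' protocols. The counter, strand setting and annotation were not given in the sources used here. Reads of genes that overlap in antisense may therefore be mixed. Fragments carried no molecular identifiers, so intervals cover counting error only.

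Accessions were named through RefSeq's table of GRCh38.p14 (18888 of 19305, 417 unnamed). Rows that name no gene were left out of library sizes. CBP80- and eIF4E-labelled libraries of 1 siRNA and set were summed, as each pair differed by about the sampling noise. Tests ran on these counts with edgeR 4.0.16 in R 4.3.3 (filterByExpr, TMM, robust quasi-likelihood fit), Benjamini-Hochberg over all genes tested and a threshold of 0.05, with 2 residual degrees of freedom a fit (4 for the IP labels and the interaction). The spread was moderated over genes. Median prior degrees of freedom were 97.0 (HEK293T siRNA), 7.03 (H9 shRNA) and 11.4 (IP labels), and without limit between cell lines. Alternatives were other scalings, filters, DESeq2 1.42.0, a block and each library left out. Ratios of single genes or sums carry 95% exact binomial intervals of the counts. The scripts were tested on simulated counts. Same-numbered libraries deviated together from their group means (r = 0.458 between siRNA labels, 0.471 between shRNA labels, and 0.576 and 0.659 between IP labels). The labels do not say that a set number marks a shared culture, and there are 2 numbers a comparison, so the fits have no block.

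Members, gene lists, tests and markers were chosen with earlier results of these data known. The rule names members past the threshold in the siRNA comparison (the 20 of smallest p if more), the 2 largest changes each way per complex at a mean of at least 20 CPM, isoform groups, F1 and SDH subunits, the 10 largest differences between cell lines, and 3 other pathway genes a comparison. Further members were named after their values were seen. 1 member that the rule takes is not reported here. The mRNA-seq was not used here, so footprints reflect both mRNA level and translation. Levels per coding length were not computed, because no protein lengths were used here.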

Additional observations from a re-analysis of the deposited data

How the results depend on the processing

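No called member and no median by complex in HEK293T reversed its direction under the alternatives run; the members' median in H9, 0.02, was −0.01 without the eIF2A-labelled library of set 1 and about 0 without the control of set 2. In the HEK293T siRNA comparison, leaving out 1 library gave 0 to 42 members called lower and 0 to 1 higher, and 44 to 1040 and 31 to 1046 over all genes. Library sizes alone gave 11 members and 292 genes lower. In a fit of all 8 HEK293T libraries, the siRNA contrast within the CBP80 label gave 4 members lower, 0 higher, and 291 and 182 genes. Within the eIF4E label it gave 4, 0, 236 and 147. DESeq2 gave 0 members higher, and 455 genes lower and 280 higher. With the set number as a replicate block, 41 members were called lower and 3 higher, and 1529 and 1464 genes (12.4 and 11.9%). Of the 24 called members, 24 kept their call with the block, with RLE factors and with either filter, 18 with DESeq2, 12 with library sizes alone, and 0 without the control of set 2. Median changes by complex without 1 library ran from −0.43 to −0.17 (I), −0.42 to −0.15 (II), −0.38 to −0.0476 (III), −0.45 to −0.13 (IV) and −0.43 to −0.0831 (V). For the IP labels, genes called lower were 3 with no count filter, 6 with the matched pair as a replicate block, and 0 to 2 without 1 library. Counts of adjusted calls in H9 and between cell lines stayed within 1.5 times; at an unadjusted p under 0.05, H9 genes ran from 0 (DESeq2) to 493 (replicate block) and members from 0 to 3. The cause of these differences was not tested. The planned density per codon was not run. Depth limits H9: 3 reads there stand for 1.60 to 3.20 CPM.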
